A study of Mus musculus with 102 samples.

Results

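The CpGs described here were methylated at a low but clear level in mouse embryonic stem (ES) cells, and this level was nearly equal in cells with and without TET enzymes. They were taken from the SureSelect table, in which bisulfite reads from captured genomic regions give a methylation level for each CpG. A CpG was a member when at least 100 reads covered it in all 8 columns, when its level lay from 10% to below 40% both in wild-type cells and in TTKO cells at day 0, and when these 2 levels differed by at most 5 percentage points. The rule found 25730 members among 1560234 CpGs with sufficient coverage, or 1.65%, and among 2177608 CpGs in the whole table. Because the members were selected on the wild-type and day 0 values, the near equality of those values is the selection itself and no result.

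DNA methylation sits mainly on the cytosine of CpG dinucleotides. DNMT3a and DNMT3b place new methyl groups, DNMT1 copies existing ones onto the new strand at replication, and the TET enzymes oxidise them on the way to removal. Low-methylated regions in ES cells are known mainly from distal regulatory sites that bind transcription factors. Imprinted loci are another known source of partial levels, since methylation there lies on the allele of 1 parent.

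TTKO cells are a Tet1/2/3 triple knockout clone made from an ES cell line in which catalytic exons of both alleles of Dnmt3a and Dnmt3b are flanked by loxP sites, while the cells called wild type come from the parental line, which carries these floxed alleles and intact Tet genes. Cre was added as a protein, which removes the floxed exons and with them de novo methylation, although by the methods of the study some alleles stayed undeleted. SureSelect libraries were made from TTKO cells without transduction (day 0), from TTKO cells at 6 times between day 4 and day 29 after Cre, and from wild-type cells without transduction. Amplicon bisulfite libraries covered both lines at day 0 and, with Cre or with a mock transduction, at the same later days. Each group held 3 replicates, but the SureSelect columns join the 3 replicates of a group, so they carry no replicate spread. TTKO is 1 clone, so differences between lines cannot be told apart from differences between clones.

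The members lay in a wide range of sequence, from CpG-poor distal DNA to packed CpG islands. The following stretches of the mm9 genome (plus strand) are shown because they carry the contrast described below. Member CpGs are in capitals, and all other bases, including other CpGs, are in lower case. The first set holds members that lost nearly all methylation after Cre, in an intergenic site whose nearest coding gene is Plekhf2, beside the start of AU018091 and in an intron of Ppp6r3.
Plekhf2 distal site, chr4:10953395-10953493: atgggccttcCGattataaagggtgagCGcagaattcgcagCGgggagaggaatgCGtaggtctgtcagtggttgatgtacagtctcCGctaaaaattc
AU018091 start, chr7:3164091-3164234: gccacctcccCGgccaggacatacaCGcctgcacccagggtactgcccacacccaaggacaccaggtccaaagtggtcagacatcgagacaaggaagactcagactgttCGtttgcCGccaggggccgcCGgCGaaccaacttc
Ppp6r3 intron, chr19:3533092-3533251: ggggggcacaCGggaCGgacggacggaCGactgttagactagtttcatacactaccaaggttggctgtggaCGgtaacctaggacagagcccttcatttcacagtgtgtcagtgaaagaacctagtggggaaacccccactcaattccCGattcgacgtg
The second set holds members whose level hardly moved, beside the starts of Rpl34, which encodes a ribosomal protein, Bmp6, which encodes a growth factor, and Mrps30, which encodes a mitochondrial ribosomal protein.
Rpl34 start, chr3:130433320-130433361: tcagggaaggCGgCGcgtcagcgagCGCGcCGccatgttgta
Bmp6 start, chr13:38438534-38438569: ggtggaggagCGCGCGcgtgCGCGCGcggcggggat
Mrps30 start, chr13:119175847-119175882: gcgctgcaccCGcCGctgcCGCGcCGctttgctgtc
The last set comes from imprinted DNA, at the Gnas cluster and between Dlk1 and Meg3.
Gnas cluster, chr2:174120681-174120980: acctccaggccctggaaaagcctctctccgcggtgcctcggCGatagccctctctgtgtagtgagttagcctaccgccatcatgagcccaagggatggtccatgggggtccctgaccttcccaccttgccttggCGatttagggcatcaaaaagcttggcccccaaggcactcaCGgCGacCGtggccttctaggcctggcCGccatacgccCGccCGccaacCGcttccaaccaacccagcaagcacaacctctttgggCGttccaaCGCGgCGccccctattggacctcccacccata
Dlk1 to Meg3 interval, chr12:110766529-110766663: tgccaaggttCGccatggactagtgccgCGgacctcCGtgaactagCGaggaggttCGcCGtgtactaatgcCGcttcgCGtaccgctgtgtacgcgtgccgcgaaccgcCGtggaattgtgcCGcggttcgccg
The Plekhf2 stretch held 6 CpGs in 99 bases, the Bmp6 stretch 9 in 36 bases and the Dlk1 to Meg3 stretch 21 in 135 bases.

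Members were covered deeply, with median coverages of 219 to 368 reads over the 8 columns. At the day 4 median of 18.8% and its median coverage of 292 reads, the 95% Wilson interval ran from 14.8% to 23.7%. Such intervals cover counting error only. The mean level of the members was 21.5% in wild-type cells and 22.0% in TTKO cells at day 0, both fixed by the rule. At the edge of the rule, 1617 members were higher in TTKO by 4.5 to 5.0 points and 1335 CpGs just outside it by 5.1 to 5.5 points, and their day 0 means were 24.5% and 24.6%. On the other side, 932 members were higher in wild type by 4.5 to 5.0 points and 745 CpGs just outside by 5.1 to 5.5 points. Median retention, defined below, was 15.3% inside and 16.2% outside on the first side, and 14.7% and 14.8% on the other.

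After Cre the members lost most of their methylation. From a mean of 20.3% on day 4 they went to 14.4% (day 8), 12.2% (day 10), 10.5% (day 13), 7.35% (day 17) and 4.19% (day 29). The loss per day was 1.92% of the level between days 0 and 4, 8.20% between days 4 and 8, and 8.27% between days 8 and 10. It was 4.84% per day between days 10 and 13, 8.46% between days 13 and 17, and 4.59% between days 17 and 29. The slower interval from day 10 to day 13 was also present over all CpGs with sufficient coverage, where the mean level fell by 3.51% per day before it, 2.03% within it and 3.53% after it.

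Per CpG, 24381 of 25730 members (94.8%) were lower at day 29 than at day 4 by Fisher's exact test on the pooled reads (two-sided, Benjamini-Hochberg adjusted over all CpGs tested), beside 63.7% of all CpGs tested. Higher levels at day 29 were called for 8 members, beside 0.158% of all CpGs tested. This test compares pooled libraries and not replicated conditions. With an over-dispersion of 0.0055 between replicates the share of members was 92.4%, beside 60.3% of all CpGs.

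The part of the day 4 level still present at day 29, called retention below, had a median of 15.5% over the members, with an interquartile range of 10.1% to 23.6%. The levels at days 4 and 29 were not used by the rule, which used these days only for coverage. CpGs with the same TTKO day 0 window served for comparison, in a group of 165740 CpGs lower in wild type by more than 5 points and a group of 10930 CpGs higher in wild type by more than 5 points. Median retention was 21.7% in the group lower in wild type, 15.0% in the group higher in wild type and 52.9% over all CpGs. The members were below the group lower in wild type on 20 of 20 chromosomes with at least 50 CpGs in both, by 3.84 to 7 points. Their chromosome medians ran from 14.5% to 17.4%, and those of the group lower in wild type from 19.1% to 24.2%, so these ranges did not overlap. Within classes of 1 percentage point of day 4 level, the members were lower in 30 of 30 classes, with means of the class medians of 15.0% and 21.1%. Against the group higher in wild type, the members were lower in 7 of 30 classes, and the means were 15.0% and 14.5%. CpGs share reads and chromosomes share libraries, so these counts describe the pooled libraries and no p-value was drawn from them.

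**Figure D1:**
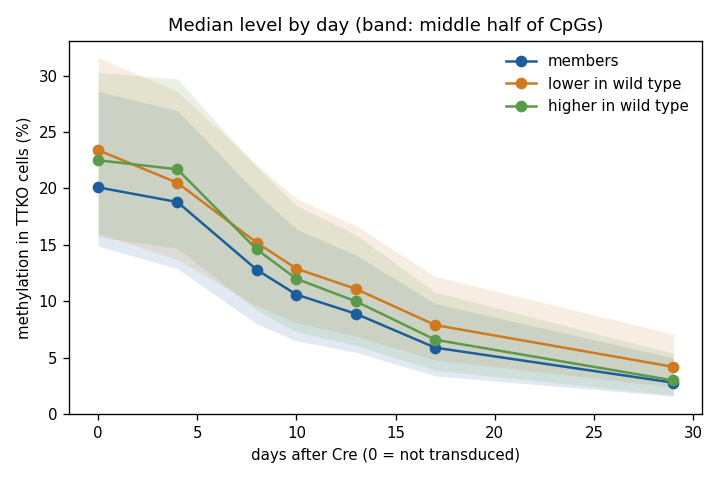
Median methylation level in TTKO cells (%) against days after Cre for members, CpGs lower in wild type and CpGs higher in wild type, with bands for the interquartile range over CpGs. The members go from a median of 18.8% at day 4 to 2.80% at day 29, and the group lower in wild type from 20.5% to 4.20%.

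Rates were inferred on the grid of the study for each CpG, with kme for the rate at which DNMT3 enzymes add methylation and kde for the rate of loss, which in TTKO cells holds no TET activity. For the members, median kde was 0.104 per day (interquartile range 0.0783 to 0.139) and median kme was 0.0302 per day (0.0187 to 0.0442). This kde corresponds to a half-life of 6.65 days. In the group lower in wild type the medians were 0.0783 per day for kde and 0.0249 per day for kme. The group higher in wild type had 0.0947 and 0.0302 per day. These fits used the pooled columns, where the study fitted its replicates one by one. Each rate here is the median of its probability distribution on the grid, where the study took the maximum likelihood value. Rates could be identified for 98.3% of the members by a border rule modelled on that of the study. Here the limit of 0.08 applied to the probability summed over all borders of the grid, and in the study to each border. The credible range of both rates was narrower than 2 log2 units, a limit set here, for 77.0% of the members, but for 33.7% without the day 0 column and for 21.5% with a beta-binomial likelihood. The fit uses the day 0 column, which also chose the members. Without it, the member medians were 0.115 per day for kde and 0.0402 per day for kme. The group higher in wild type then had 0.115 and 0.0442 per day, so its kde was no longer below that of the members, and the group lower in wild type had 0.0861 and 0.0302 per day.

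Retention was not uniform among members and differed with the number of CpGs around them. The members lay apart from other CpGs, with a median distance to the nearest CpG in the genome of 26 bp, compared with 15 bp for CpGs lower in wild type, 31 bp for CpGs higher in wild type and 13 bp over all CpGs. The median number of other CpGs within 100 bp was 3 for the members and 5 for both the group lower in wild type and all CpGs. No other CpG lay within 100 bp of 10.3% of the members, compared with 4.69% of all CpGs. The median GC content of the bases within 100 bp was 47.3% for members and 52.7% over all CpGs. More than 10 other CpGs lay within 100 bp of 2144 members (8.33%). This share was 16.1% in the group lower in wild type, 4.15% in the group higher in wild type and 23.6% over all CpGs.

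Members with 0, 1 to 2 or 3 to 5 CpGs within 100 bp had the same median retention of 14.4%, with 2647, 9056 and 8756 members. It was 17.8% for 3127 members with 6 to 10 CpGs, 33.4% for 1862 members with 11 to 20 CpGs and 65.6% for 282 members with 21 or more. Over these last 3 classes, the share of members lower at day 29 was 92.2%, 74.4% and 50.4%. It also fell in the group lower in wild type, with 93.6%, 87.2% and 77.0%, and in the group higher in wild type, with 93.5%, 80.6% and 70.3%. The order relative to the group lower in wild type turned around along this axis. With up to 5 CpGs within 100 bp, the members retained less at matched day 4 level in 30 of 30 classes, by a mean of 4.49 points. With over 10 CpGs they were lower in 2 of 30 classes and retained more by a mean of 7.49 points, although this held only in part of the surroundings, as given below. The group higher in wild type also retained more in dense sequence, with medians of 43.3% at 11 to 20 CpGs and 66.4% at 21 or more. Median kde was 0.104 per day for members with up to 5 CpGs within 100 bp and 0.0535 per day for members with over 10. The rates of dense members were less well determined, with 87% identifiable and 44.4% within the limit on the credible range, compared with 99.6% and 81.4% of the sparse members. The same medians were 0.0861 and 0.0647 per day in the group lower in wild type, and 0.104 and 0.0332 per day in the group higher in wild type.

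**Figure D2:**
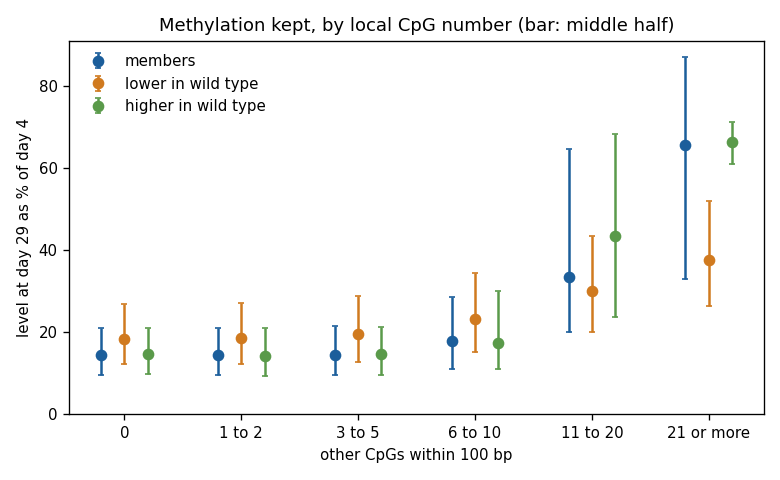
Level at day 29 as a percentage of the level at day 4 against the number of other CpGs within 100 bp, for members and both comparison groups, with points at the median and bars for the interquartile range over CpGs. Members sit below the CpGs lower in wild type up to 6 to 10 CpGs and above them from 11 CpGs on, with 65.6% against 37.5% at 21 or more.

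Among members in such dense sequence, those in otherwise unmethylated DNA kept the most. Surroundings were measured as the mean TTKO day 0 level of the other measured CpGs within 100 bp outside the CpG's own set. For members this left out other members, and for each comparison group it left out other CpGs of that group. For 624 members with over 10 CpGs within 100 bp and surroundings below 10%, the mean level was 17.4% at day 4 and 13.1% at day 29, and median retention was 78.9% (interquartile range 55.3% to 96.0%). For 1194 dense members with surroundings from 10% to below 40%, median retention was 28.5%, and for 321 with surroundings of 40% or more it was 28.3%. The group lower in wild type had 12091 CpGs of the first kind, with a median retention of 30.7%, and 30.8% and 29.5% in the other surroundings. By this measure the members were above that group only in surroundings below 10%, and slightly below it in the other classes. Another of their own kind lay within 100 bp for 71.8% of that group and for 27.4% of members. Own kind lay from 10% to below 40% in TTKO and were left out, so surroundings below 10% are not alike in both groups. The CpGs higher in wild type had 71.3% (58 CpGs), 31.6% and 31.2% in the same order. With up to 10 CpGs within 100 bp, the members in surroundings below 10% had a median of 15.4%, close to the 14.7% of those in surroundings of 40% or more. Coverage at day 29 was similar, with medians of 274 reads for the 624 members and 292 and 271 reads for the other dense members.

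In all, 780 members (3.03%) had a retention of at least 75%, compared with 1.41% of the group lower in wild type, 1.15% of the group higher in wild type and 27.2% of all CpGs. Of these members, 59.7% had over 10 CpGs within 100 bp, compared with 6.73% of the other members. Their mean level was 21% at day 0 and 18.7% at day 29. Of these members 5.77% were covered by over 1000 reads at day 29, compared with 2.64% of the others.

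The methylation around members formed a dip in TTKO cells. Non-member CpGs averaged 24.2% at 1 to 10 bp from a member, 26.9% at 11 to 20 bp, 32.0% at 21 to 50 bp and 36.6% at 51 to 100 bp, and 22.7% beyond 500 bp and up to 1000 bp. In wild-type cells the same CpGs averaged 18.1%, 18.6%, 21%, 23.6% and 14.5%. The difference between the lines was 6.09 points at 1 to 10 bp and 13.0 points at 51 to 100 bp, where all CpGs with sufficient coverage differed by 13.5 points. Members among the neighbours were left out of these values, and members are the CpGs that the rule fixes as nearly equal. With them kept, the differences were 4.33 and 12.1 points. Around CpGs lower in wild type the TTKO profile was flat, from 25% at 1 to 10 bp to 25.7% at 51 to 100 bp, and the difference between the lines was 16.1 and 15.6 points. Around CpGs higher in wild type the TTKO dip was steeper than around members, from 27% at 1 to 10 bp to 44.6% at 51 to 100 bp. For both comparison groups, neighbours of the same group were left out in place of members. Neighbouring CpGs lie on the same reads, and the value at the member itself was set by the rule.

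**Figure D3:**
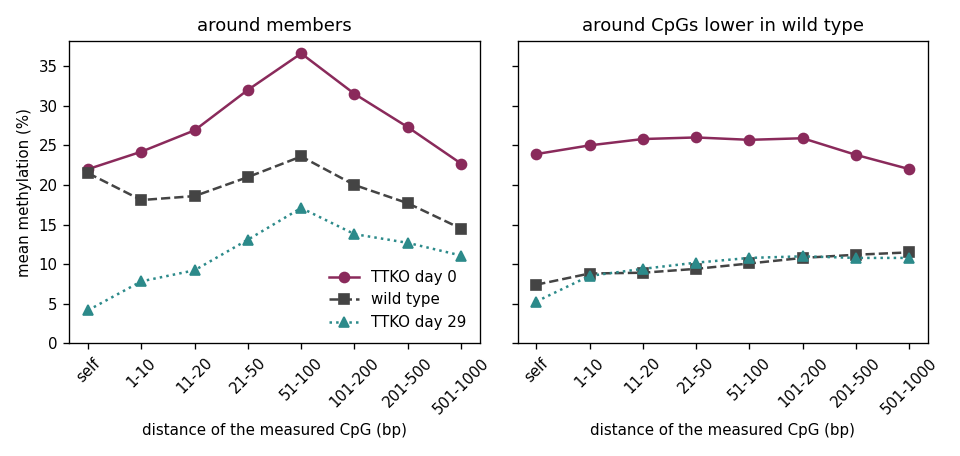
Mean methylation (%) of measured CpGs against their distance in bp from a member (left) or from a CpG lower in wild type (right), for TTKO day 0, wild type and TTKO day 29, where "self" is the chosen CpG itself. Around members the TTKO level rises from 22.0% to 36.6% within 51 to 100 bp, while the right-hand profile stays between 22% and 26%. Neighbours of the same set as the chosen CpG are left out.

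Members were mostly single. Another member lay within 100 bp for 7056 of them, or 27.4% (95% Wilson interval 26.9% to 28.0%), while 4.35% of all CpGs had a member within that distance. For the group lower in wild type, 71.8% had another of their kind within 100 bp, beside 23.2% of all CpGs, and for the group higher in wild type 27.0%, beside 1.41%. Shares of own kind thus exceeded the share over all CpGs in each group. Of 22280 members with a measured CpG within 100 bp, the nearest was itself a member in 18.4%, lower in wild type in 19.2%, at 40% or more in TTKO in 35.4% and below 10% in 19.4%. These classes made up 1.65%, 10.6%, 47.2% and 39.4% of all CpGs with sufficient coverage. Joined over gaps of at most 100 bp, the members gave 21621 chains, of which 18674 were single CpGs and 106 held 5 or more members.

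Retention rose with chain size. Its median was 14.9% for single members, 15.6% for pairs, 18.4% for chains of 3 to 4, 39.8% for 604 members in chains of 5 to 9 and 70.8% for 105 members in 6 chains of 10 or more. The median number of CpGs within 100 bp rose in the same order, from 2 to 14, and the members' mean day 4 level was 30.5% in chains of 10 or more and 20.6% for single members. Most members in chains of 10 or more lay in imprinted DNA. The chains of 28, 25 and 20 members were at Gnas, and that of 10 lay between Dlk1 and Meg3. The chains of 11 members, at chr2:168834510-168834685 and chr17:37107792-37108141, kept 42.2% and 18% of their day 4 level. The high median of this class therefore rests mainly on the imprinted loci. Among the 106 chains of 5 or more, the summed reads gave a median retention of 38.8%, from 7.30% to 117%, with 39 chains at 50% or more and 17 below 20%. Of 19 chains whose other CpGs within 100 bp averaged below 10%, 18 kept at least 50%, compared with 21 of 86 chains with surroundings of 10% or more.

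The 3 largest chains lay in the Gnas cluster, an imprinted locus that encodes the stimulatory G protein alpha subunit and related transcripts. The largest held 28 members over 608 bp beside the start of Nespas (chr2:174120527-174121134), with 35.5% in wild type, and in TTKO cells 33.9% (day 0), 33% (day 4), 26.1% (day 17) and 23% (day 29). Chains of 25 members (chr2:174124096-174124449) and of 20 members (chr2:174125271-174125631) followed, with 33.9% and 32.2% at day 4 and 25.6% and 22.9% at day 29. These 3 chains kept 69.8%, 75.6% and 71.2% of their day 4 level. The chain of 10 members between Dlk1 and Meg3 (chr12:110766539-110766653) was at 38.7% at day 4 and 33.1% at day 29, a retention of 85.5%. In these 4 places the non-member CpGs within 100 bp had similar levels, with day 0 means of 30.7% to 38.9%.

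The other 4 chains named for their number of members lost more than these. The 2 of them with 9 members come from 8 chains that tie at this number, of which the shortest were taken, and retention over the 8 ran from 17.8% to 73.7%. The highest of the 8 lay in Meg3 (chr12:110778854-110779238), from 33.1% at day 4 to 24.4% at day 29, and was picked for this value. The intergenic chain of 11 members at chr2:168834510-168834685 went from 22.8% at day 4 to 9.62% at day 29. A chain of 9 members in an exon of Lingo3 (chr10:80297297-80297388) went from 19.6% to 6.16%. Chains of 11 members at the pseudogene H2-M6-ps (chr17:37107792-37108141) and of 9 members in an exon of 1700106N22Rik (chr17:85561437-85561535) went from 14.0% to 2.52% and from 13.9% to 2.83%. Their retention was 42.2%, 31.4%, 18% and 20.4%.

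The 4 chains with the highest retention lay beside the starts of coding genes, and each covered less than 100 bp. The 7 members at Zfp180, a zinc finger gene (chr7:24867135-24867206), had 16.4% (day 4), 13.9% (day 8), 17.1% (day 10), 21.9% (day 13), 17.9% (day 17) and 19.2% (day 29). The 6 members in the Bmp6 stretch shown above were at 22.9% at day 4 and 22% at day 29, the 5 at Rpl34 at 10.7% and 10.2%, and the 5 at Mrps30 at 21.8% and 20.3%. The other measured CpGs within 100 bp of these chains had day 0 means of 3.50%, 2.25%, 1.36% and 0.778%, so that all 4 were short methylated stretches inside nearly unmethylated DNA. This set depends on the day 4 base. With day 0 as base, the Rpl34 chain kept 83.6%, and an intergenic chain at chr15:81342216-81342237 kept 112%. The other CpGs around that chain averaged 12.1% at day 0.

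The 4 chains with the lowest retention were the stretches at Plekhf2, AU018091 and Ppp6r3 shown above and a chain at the start of Trh, the gene of thyrotropin-releasing hormone (chr6:92193689-92193920). The Trh chain had 14.5% (day 0), 25.3% (day 4) and 1.84% (day 29). Its level at day 4 was thus above that at day 0, as was that of the Ppp6r3 chain, with 15.2% and 24.1%. The Plekhf2, AU018091 and Ppp6r3 chains ended at 1.08%, 1.54% and 2.06%. Retention in these 4 chains ran from 7.30% to 8.53%, and they had medians of 4 to 6 other CpGs within 100 bp. The rate model holds 8% of the starting level for undeleted alleles, and these values lie near it. With day 0 as base, the Trh and Ppp6r3 chains kept 12.7% and 13.6%. That is above a chain not among these, at chr8:111599126-111599274, with 7.46%, so the ranking depends on the base. They and the 4 stable chains were picked for these values.

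**Figure D4:**
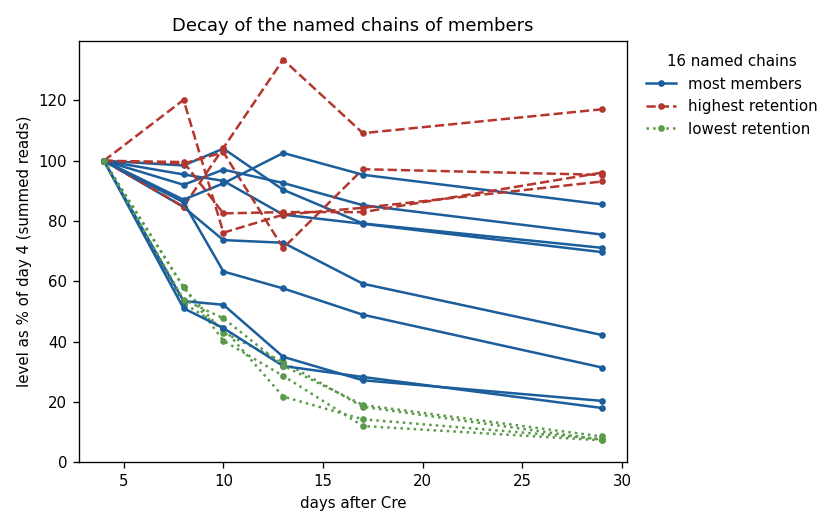
Methylation level as a percentage of the day 4 level (summed reads of each chain) against days after Cre for the 16 named chains, with 8 chosen for most members, 4 for highest and 4 for lowest retention. The lowest 4 end at 7.30% to 8.53%, the highest 4 at 93.1% to 117%, and the Gnas chains at 69.8% to 75.6%.

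By position, 22.1% of the members lay within 1 kb of an annotated transcript start, 8.33% in other exons, 32.9% in introns and 36.7% between genes. Over all CpGs with sufficient coverage the shares were 39.8%, 7.82%, 26.5% and 25.9%. The median distance to the nearest start was 6150 bp for members, 2211 bp for the group lower in wild type and 7960 bp for the group higher in wild type. Median retention was 18.4% for members near starts and 18.6% in exons, where medians of 4 and 6 CpGs lay within 100 bp, and 14.5% in introns and 14.6% between genes, with a median of 2.

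The letters next to the CpG also differed. CCGG made up 4.19% of the members, 9.82% of CpGs lower in wild type and 9.04% of all CpGs. TCGA made up 7.48%, 4.29% and 4.13%, and ACGA with its complement TCGT 13.5%, 9.70% and 9.47%. The group higher in wild type departed from all CpGs in the same direction and further, with 3.28%, 9.38% and 13.7%. Retention of members was lowest for ACGT, with a median of 12.7%, and highest for CCGG, with 20.3%. The same 2 contexts were lowest and highest among CpGs lower in wild type, with 17.5% and 26.8%.

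Of 8 motifs searched on both strands in the 100 bases around each CpG, none was common by exact match to its consensus. Sites that depart from the consensus are missed by this search. No CTCF or REST match lay around the amplicon members described below, although some of them lie in regions of the CTCF and REST classes. Low shares of matches therefore do not show that binding sites are rare. A match to the CTCF consensus, the binding sequence of an insulator protein, lay in 0.564% of member windows, 0.405% of windows in the group lower in wild type and 0.491% of all windows. The CpG itself lay inside the CTCF match for 29 members (0.113%), for 13 CpGs lower in wild type (0.00784%), for 24 CpGs higher in wild type (0.220%) and for 0.0972% of all CpGs. Members inside CTCF matches had a median retention of 13.4%. The NRF1 consensus, bound by a factor whose binding is known to be sensitive to methylation, enclosed 34 members (0.132%), compared with 0.0308% of CpGs lower in wild type, 0.128% of CpGs higher in wild type and 0.0797% of all. These members kept a median of 68.9%, compared with 31.8% for such CpGs lower in wild type and 75.5% for all such CpGs. The GC box GGGCGG lay in 6.14% of member windows, 7.93% of windows in the group lower in wild type and 9.77% of all windows. It enclosed the CpG itself for 3.33% of members, 1.90% of CpGs lower in wild type, 3.67% of CpGs higher in wild type and 2.20% of all, and its members kept 12.8%. TGCCGC, the core bound by ZFP57 at imprinted loci, lay in 2.59% of member windows and 4.52% of all windows. CCGGAA lay in 1.91% and 4.75%, the E-box CACGTG in 2.70% and 3.12%, TGACGTCA in 0.163% and 0.323%, and the REST consensus in 0.0272% and 0.0642%. CCGGAA overlaps the CCGG context above.

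Members were counted within 5 gene lists, from 5 kb before the start to the end of each gene. The imprinted list held 187 members among 2372 measured CpGs, or 7.88%, in 14 of the 21 genes found in the annotation. Their mean level was 32.6% at day 4 and 23.1% at day 29, median retention was 72.1%, and 104 of the 187 were lower at day 29, beside 94.8% of all members and 63.7% of all CpGs. Gnas held 100 of them with a median retention of 71%, and Meg3, a maternally expressed long noncoding RNA, held 34 with 70.2%. The divergent pair Peg10 and Sgce shared 16 members, which went from 41.8% to 36.9%, a median retention of 89.4%. At Snrpn, 7 members kept 75.6%, at Mest 8 kept 89.5% and at Nnat 5 kept 78.0%. Peg3 had 7 members with a median of 55.1%, and the 1 member at Igf2r kept 97.7%. Retention was low at others, with medians of 13.1% for 2 members at Plagl1, 16.7% for 3 at Grb10 and 14.9% for 3 at Airn, of which 1 is the Igf2r member, and with 16.1% and 7.72% for the single members at Cdkn1c and Slc38a4. The window of the rule ends below 40%, so CpGs near equal shares of both alleles were not members.

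The germline list, genes that are methylated and silent in somatic cells, held 12 members among 384 CpGs (3.12%). Of these, 7 lay at Sycp3, a component of the synaptonemal complex, and went from 27.1% at day 4 to 8.04% at day 29. The pluripotency list held 22 members among 1757 CpGs (1.25%) with a median retention of 8.85%, and 22 of 22 were lower at day 29, close to the 94.8% of all members. Of these, 12 lay at Tbx3, a transcription factor gene, and went from 16.1% to 1.28%, and 4 at Zfp42, known as Rex1, went from 16.9% to 0.65%. The methylation machinery list held 23 members among 1154 CpGs (1.99%), of which 9 lay at Tet2 and went from 15.0% to 2.83%. The Hox list held 21 members among 4302 CpGs (0.488%), of which 7 lay at Hoxc4 and went from 26.7% to 3.87%. Over all CpGs with sufficient coverage the share of members was 1.65%. Without Gnas the imprinted list held 4.49%. Without Sycp3 the germline list held 1.48%, and without Tet2 the machinery list held 1.34%, so that their shares above 1.65% rested on 1 gene each. Without Tbx3 the pluripotency list held 0.647%.

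Replicated values exist for 10 members, which the amplicons also covered, all in low-methylated regions. These libraries had a median of 3868 reads per member and sample, and 7 of 780 values had fewer than 100 reads and were left out. They were chosen by the study for amplicons and are not a sample of all members. The DNA around 5 of them is shown in 4 stretches, with member CpGs in capitals.
Low-methylated region of the CTCF class, 2 members, nearest coding gene Sf3b5, chr10:12738413-12738474: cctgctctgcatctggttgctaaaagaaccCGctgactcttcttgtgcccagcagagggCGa
Low-methylated region of the REST class, intron, nearest start Tssc1, chr12:29516180-29516241: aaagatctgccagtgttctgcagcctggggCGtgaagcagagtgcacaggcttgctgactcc
Low-methylated region of the CTCF class, nearest 2700060E02Rik, chr14:20659337-20659398: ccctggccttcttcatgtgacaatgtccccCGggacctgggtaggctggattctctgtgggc
Constitutive low-methylated region, nearest Ssr3, chr3:65259496-65259557: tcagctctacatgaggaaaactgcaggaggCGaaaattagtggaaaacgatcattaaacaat
The level at the CpG near Tssc1 (chr12:29516210) was at 43.5%, 46.9% and 38.4% in wild type and 44.1%, 42.4% and 41.5% in TTKO at day 0, so the replicates of the lines overlapped, and its log2 odds ratio was 0.03 ± 0.14 (SE).

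At day 0, the amplicon libraries repeat the contrast of the rule in separate libraries. The labels give them the same replicate names as the SureSelect libraries, so both may come from the same cultures. Of the 10 members, 3 were lower in wild type than in TTKO (quasi-binomial model with limma's moderated dispersion, adjusted p under the threshold of 0.05), beside 59.3% of all 405 amplicon CpGs, and none was higher, beside 1.48%. The 3 were the CpG near Ipcef1 (chr10:3270068), at 10.7%, 10.9% and 9.35% in wild type and 20.3%, 15.9% and 11.9% in TTKO, and 2 others. At the first Sf3b5 member (chr10:12738443), wild type had 12.7%, 13.3% and 9.14% and TTKO 25.9%, 19.2% and 14.8%. At the member near Gsx1 (chr5:147971072), wild type had 20.2%, 19.8% and 25.2% and TTKO 34.6%, 33.6% and 27.6%. In all 3 the replicates of the lines did not overlap. The log2 odds ratios, wild type over TTKO, were -0.71 ± 0.22, -0.86 ± 0.31 and -0.76 ± 0.21 (SE), with adjusted p = 0.0248, 0.0420 and 0.0148 by the same model in limma. Leaving out any of the 3 wild-type libraries, TTKO replicate 1 or TTKO replicate 2 left 1 call of 10. The median over the 10 members was -0.42, and -1.17 over all amplicon CpGs.

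At day 29, Cre-treated TTKO cells were lower than mock at 10 of 10 members, beside 68.6% of all amplicon CpGs. The largest changes were at 2700060E02Rik, where mock had 35.8% and 32.4% and Cre 2.06%, 0.636% and 0.208%, and near Ssr3, where mock had 55.1%, 62.0% and 62.9% and Cre 6.30%, 2.63% and 2.05%. For the first, mock replicate 3 had 1 read and was not used. Their log2 odds ratios were -5.57 ± 0.84 and -5.23 ± 0.56 (SE), with adjusted p = 0.00119 and 0.000135 in limma's moderated model. The smallest change was at Ipcef1, with 10.4% ± 2.52 in mock and 2.21% ± 0.401 in Cre (SD, n = 3). Near Tssc1, mock libraries were at 53.1%, 48.8% and 46.9% and Cre libraries at 6.52%, 11.5% and 7.58%.

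With TET present, Cre lowered 8 of 10 members at day 29, beside 52.3% of all amplicon CpGs. Near Tssc1, wild-type mock had 59.1%, 60.8% and 61.8% and Cre 13.1%, 24.1% and 11.5%. At the first Sf3b5 member, mock had 9.60%, 10.9% and 11.1% and Cre 1.08%, 1.17% and 0.626%. The 2 members that did not pass were the one near Gsx1, where mock had 41.4%, 19.6% and 19.3% and Cre 3.03%, 3.06% and 4.48% (log2 odds ratio -3.05 ± 1.16, limma adjusted p = 0.0660), and the one in an exon nearest to Bola2 (chr7:133836069). There, mock had 11.8%, 17.1% and 10.5% and Cre 9.85%, 8.73% and 2.79%, a log2 odds ratio of -0.89 ± 0.45 with limma adjusted p = 0.145. Groups did not overlap at either CpG. Without wild-type mock replicate 1 or mock replicate 2 the CpG near Gsx1 passed, with log2 odds ratios of -2.82 and -3.67.

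The effect of Cre did not pass as different between the lines at any of the 10 members by the interaction term of the limma-moderated model, beside 2.96% of amplicon CpGs with a stronger and 2.72% with a weaker loss in wild type. Unadjusted p was under 0.05 for 2 of them, Bola2 with a difference in log2 odds ratio of 2.45 ± 0.88 (limma adjusted p = 0.117) and Ipcef1 with 1.15 ± 0.45 (limma adjusted p = 0.152), both toward a weaker loss in wild type. At Bola2 the mean after Cre was 7.12% ± 3.79 in wild type and 1.07% ± 0.405 in TTKO (SD, n = 3). For the other 8 the SE of the difference ran from 0.38 to 1.65, and a p that missed the threshold does not show equal effects.

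**Figure D5:**
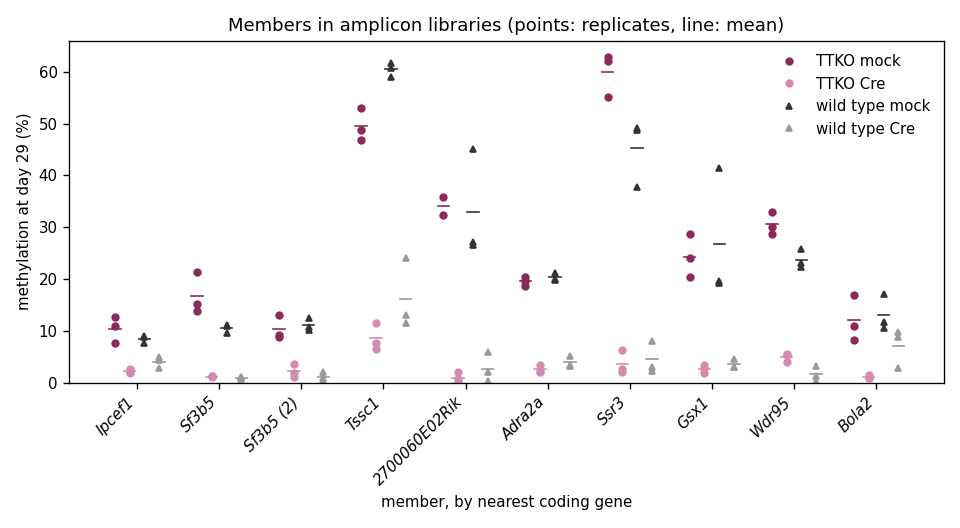
Methylation at day 29 (%) in amplicon libraries for the 10 members, by nearest coding gene, in TTKO and wild-type cells with mock or Cre, with points for replicates and lines for means. In TTKO cells the Cre points lie below the mock points at each member, with Cre means of 0.969% to 8.54% and mock means from 10.4% upward.

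The assays did not give the same levels everywhere. Near Ssr3, the amplicon libraries at day 0 in TTKO had 47.2%, 57.4% and 45.3%, and the pooled SureSelect level was 30.7%. Near Tssc1 the values were 42.6% and 30.5%. SureSelect retention at the 10 members ran from 3.37% near Gsx1 to 37.0% near Tssc1. Mock levels also differed between days, and the cause was not tested. Near Tssc1, the TTKO mock mean was 47.7% ± 1.19 on day 4, then 62.2% ± 1.71 (day 13) and 49.6% ± 3.16 (day 29; SD, n = 3). Near Gsx1, wild type had 21.7% ± 2.99 at day 0, and its mock mean was 49.8% ± 6.80 (day 8) and 26.8% ± 12.7 (day 29; SD, n = 3). The study describes mock levels as stable in TTKO and as rising slightly in wild type between days 4 and 8.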

How the data were processed

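Bisulfite levels were measured in 102 samples, 24 by SureSelect capture and 78 by amplicons. The authors deposited read counts (coverage) per CpG for both assays, SureSelect levels as a percent with 3 replicates joined in each of 8 columns, and amplicon levels as a fraction per replicate. Positions are on mm9, per the labels, and 1560234 of 1560234 CpGs with sufficient coverage were CG in that genome. Other deposited columns hold the authors' inferred rates, TET activity and confidence classes and were not used. The members, lists and comparison groups were chosen with earlier results of these data known.

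Methylated reads were recovered as whole numbers. Coverage of at least 100 reads was required. SureSelect counts (421283985 to 740590811 CpG reads per column) were compared by Fisher's exact test. Amplicon reads (0.5 added to each count) were fitted in R 4.3.3 with a quasi-binomial logistic model, with dispersion moderated across CpGs by limma 3.58.1 and held at 1 or above, two-sided, Benjamini-Hochberg adjusted over 405 CpGs. Rates came from a grid of 80 by 80 values with DNMT3 lost at a rate kE of 0.5 per day, a share of 8% held at the starting level for alleles left undeleted and a conversion error of 0.0025. Named chains were the 8 with the most members (of 8 chains tied at 9 members, the 2 shortest) and, of chains with 5 or more members, the 4 with the highest and the 4 with the lowest retention. Also named were members in amplicons and the genes with the most members per list. All other genes of the imprinted list that are given, the Meg3 chain and Zfp42 were named after their values were seen. Steps were tested on simulated data. No amplicon replicates agreed within sampling noise, and p-values measure the spread between them. The study calls its replicates biological, while the labels do not say whether they were separate cultures. Retention shares the day 4 value as its base.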

Additional observations from a re-analysis of the deposited data

How the results depend on the processing

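The number of members rose from 25730 to 33931 with a coverage minimum of 50 and to 37051 with a difference of at most 8 points. It fell to 14492 with a coverage minimum of 200 and to 16757 with a difference of at most 3 points. The number lower at day 29 was then 14204 of 14492 at a coverage of 200, beside 72.9% of all CpGs tested. Median retention of members was 13.8% with day 0 as base and 15.0% at a coverage of 200, that of the group lower in wild type 19.2% and 20.8%, and that of the group higher in wild type 14.1% and 14.7%, so the members stayed below the first group in both. Without chromosome X or without CpGs over 1000 reads these medians were 15.5%, 21.7% and 15.0%. The share with another member nearby was 22.2% within 50 bp, 44.4% within 500 bp and 25.6% at a coverage of 200, where the median distance to the nearest CpG was 28 bp. Without day 0, median kde was 0.115 and kme 0.0402 per day.

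As alternatives added after the data were seen, members with over 10 CpGs within 100 bp had a median retention of 36.2%, and 34.2% without the imprinted genes of the list, 32.4% without chains of 5 or more and 33.7% with day 0 as base. Lists without their leading gene and profiles with members kept were also added then.

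Leaving out each amplicon library gave 1 to 3 calls for wild type against TTKO at day 0, 9 to 10 and 8 to 9 for Cre against mock in TTKO and in wild type, and 0 for the difference between lines. The count of 9 in TTKO came from chr14:20659367, which was not tested where only 1 mock library with enough reads was left. The sign of the log2 odds ratio turned for chr12:29516210 (-0.180 to 0.210) and chr5:150291069 (-0.578 to 0.146) at day 0, and for the difference between lines at chr12:29516210 (-0.0293 to 0.757) and chr5:147971072 (-0.257 to 0.593), none of which passed the test. Samples with the same replicate number did not deviate together (correlations of -0.0967 to 0.0697), so the numbers were not taken to pair them. The replicate block gave 2, 10, 9 and 0 calls in the 4 comparisons. With it chr5:147971072 lost its call at day 0 (-0.768), passed for Cre in wild type (-3.71) and had a difference between lines of -0.262. The cause of these changes was not tested.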
